A study of Rattus norvegicus with 90 samples.

Results

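The high-dose exposure of rat hepatocytes for 24 h was compared with vehicle in 9 of the 90 RNA libraries of the series. The members were chosen by their labels (cell type, duration and dose), and comprised 5 libraries of cells given 0.125 mM thioacetamide-S-oxide and 4 of the 5 vehicle libraries. The fifth vehicle library, MS-183, was left out because 8.33% of its estimated counts fell on transcripts, against 84.1% to 93.5% in the other 4. The series holds 18 conditions of 5 libraries each, from hepatocytes, renal cells and cardiomyocytes at 9 and 24 h, and was made to relate the RNA response of cultured cells to organ injury in the animal.

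All hepatocytes were primary cells of Sprague-Dawley rats, which the study bought frozen and plated on collagen. After a first period in culture, the high-dose group received 0.125 mM thioacetamide-S-oxide for 24 h and the vehicle group received maintenance medium alone for 24 h. The other 4 hepatocyte groups were a low dose (0.025 mM) at 24 h, and the same 3 treatments given for 9 h, each with 5 libraries. The labels do not say whether the libraries of a group came from different animals or lots of cells, so the p-values measure the spread between these libraries only, which may be technical. The purity of the hepatocytes was not given in the sources used here, and other liver cells were not measured.

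Thioacetamide is a classical liver toxicant that is harmful only after metabolism. Cytochrome P450 and flavin-containing monooxygenases oxidise it at the sulfur to the S-oxide, and a further oxidation gives a reactive product that binds proteins and lipids in the cell that made it. Hepatocytes carry out these steps at high rates, and giving the S-oxide directly enters the pathway after its first step. Cultured hepatocytes also tend to lose the expression of liver-specific genes with time on the plate.

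The measurements were Kallisto estimated counts per transcript of poly-A-enriched RNA, and CPM below means transcript counts scaled to one common library size after TMM normalization. TPM, also scaled to a common total, is a level per length. The transcripts carry Ensembl identifiers that no table used here pairs with genes, so gene names and functions are not given and 4 transcripts are named by identifier. Total estimated counts ranged from 20593560 to 30185104 in the 4 vehicle libraries and from 22285879 to 39608681 in the 5 high-dose libraries. Neither the totals nor 4 other library measures (percent of counts on transcripts, transcripts detected, and the TPM shares of the 10 and the 100 most abundant transcripts) passed the test between the groups. The smallest adjusted p over these 5 measures was 0.159 (exact two-sided permutation tests, 5 against 4). With 5 against 4 libraries these tests can miss a difference, so they do not show that the groups were alike. The lowest raw p was 0.0317 (exact permutation test), for the 100 most abundant transcripts, with a mean of 44.4% of the TPM in vehicle and 37.4% at the high dose. They held between 40.2% and 49.1% in the vehicle libraries and between 35.3% and 43.3% in the high-dose libraries.

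The 4 vehicle libraries at 24 h stood apart from every other hepatocyte library, and each result below that uses them carries this limit. On the first principal component of log2 CPM over 29 hepatocyte libraries, which held 23.2% of the variance, they lay between 107.5 and 114.9. The other 25 libraries lay between -35.3 and 14.7, with the 5 high-dose libraries at 24 h between -0.448 and 14.7. The third component, with 9.78% of the variance, held the 5 high-dose libraries at 24 h between 41.5 and 74.1, above all others, and the highest of them was MS-120. The root-mean-square log2 difference between group means, over 18452 transcripts, was 0.96 between high dose and vehicle at 24 h. It was 1.08 between the vehicle groups at 9 and 24 h, which received no toxicant, 0.62 between high and low dose at 24 h and 0.65 between the high dose at 9 and 24 h. The labels number the vehicle libraries at 24 h from MS-181 to MS-185 and the other hepatocyte libraries from MS-91 to MS-105 and MS-111 to MS-120, and name no batch. Exposure and whatever else sets these vehicle libraries apart therefore cannot be told apart within the comparison at 24 h.

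**Figure D1:**
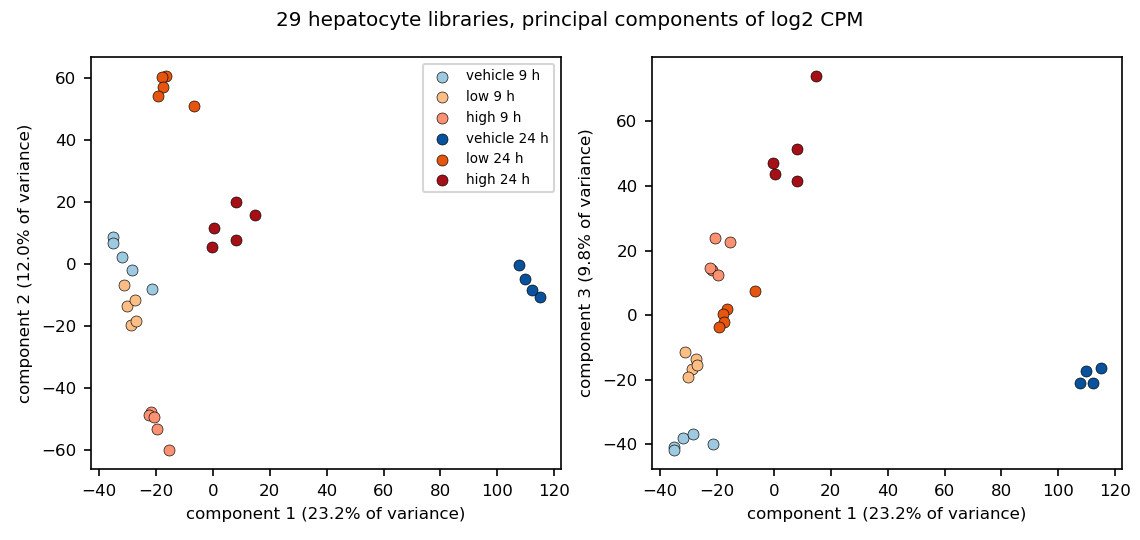
Principal components of log2 CPM for 29 hepatocyte libraries, 1 point per library, with component 1 (23.2% of the variance) on both horizontal axes and components 2 and 3 on the vertical axes. The 4 vehicle libraries at 24 h lie at 107.5 or above on component 1, and the 5 high-dose libraries at 24 h lie highest on component 3.

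At the high dose, 4475 of 16749 transcripts tested (26.7%) were differentially expressed (DEGs) against vehicle at 24 h. To count as a DEG, a transcript needed an adjusted p of 0.05 or less in edgeR's quasi-likelihood test and a fold change whose natural log was 0.41 or more in either direction. Of the transcripts tested, 2533 rose (15.1%) and 1942 fell (11.6%). The rises were larger than the falls, with a median log2 change of 1.16 among the transcripts that rose and a median fall of 0.91 in size among those that fell. A change of 2-fold or more was seen in 1556 rising and 824 falling transcripts, of 4-fold or more in 495 and 225, and of 16-fold or more in 90 and 43. The mean absolute log2 fold change over all transcripts tested was 0.62, and the median log2 fold change was 0.02. The mean absolute difference from the vehicle mean was 0.68 ± 0.04 (SD, n = 5) on the log2 CPM scale over the high-dose libraries, and MS-120 had the largest, 0.75. Without MS-120 the number of DEGs was 4624. With MS-183 kept among the vehicle libraries it was 1693.

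The groups did not overlap, meaning that the 5 high-dose values were all above or all below the 4 vehicle values, for 7097 of the 16749 transcripts tested (42.4%) and for 4056 of the 4475 DEGs (90.6%). Both counts come from the contrast that defined the DEGs and are a description of it. At the extreme, 10 transcripts had 0 counts in every vehicle library and at least 10 in every high-dose library. Of these, 6 also had at least 10 counts in every vehicle library at 9 h, and 5 in every low-dose library at 24 h. In the other direction, 7 transcripts had 0 counts in every high-dose library and at least 10 in every vehicle library at 24 h. None of the 7 reached 10 counts in every vehicle library at 9 h, and 1 did so in every low-dose library at 24 h.

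**Figure D2:**
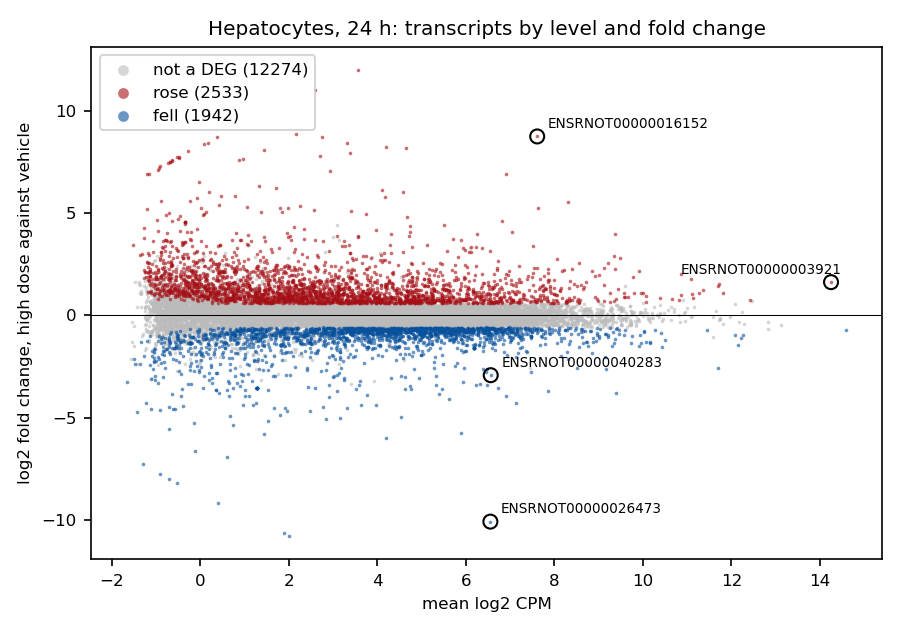
Log2 fold change of high dose against vehicle in hepatocytes at 24 h (vertical axis) by mean log2 CPM (horizontal axis), 1 point per transcript tested, with the 2533 that rose in red, the 1942 that fell in blue and the 4 named transcripts circled. DEGs occur at every level, and the largest changes in size occur in both directions.

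Rising transcripts were more frequent at low levels of mean log2 CPM than at high ones. Among the 4188 transcripts with the lowest mean log2 CPM (1.57 or less), 906 rose (21.6%) and 442 fell (10.6%). Among the 4187 with the highest (5.54 or more), 403 rose (9.63%) and 507 fell (12.1%). Transcript length was less tied to the direction, with 655 rising (15.6%) and 427 falling (10.2%) among the 4188 shortest, and 561 rising (13.4%) and 574 falling (13.7%) among the 4187 longest. Abundance was ranked by the mean of the vehicle and the high-dose mean TPM. Among the 50 most abundant transcripts, 5 rose and 20 fell, with a median log2 fold change of -0.33. Among the 200 most abundant, 25 rose and 31 fell, with a median of -0.22. Over all transcripts tested, 15.1% rose and 11.6% fell. The 50 held 33.96% of the TPM in vehicle and 26.6% at the high dose (group means). These shares were not tested, and lower-count transcripts have larger errors.

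The share of RNA that the DEGs held differed between the groups. The transcripts that rose together held 5.73%, 7.01%, 6.81% and 5.99% of the TPM in vehicle libraries MS-181, MS-182, MS-184 and MS-185. In high-dose libraries MS-116 to MS-120 they held 16.8%, 17.4%, 17.5%, 16.9% and 16.2%. The transcripts that fell held between 24.6% and 31.2% of the TPM in vehicle and between 11.6% and 13.3% at the high dose. The DEGs were chosen on these 9 libraries, so the separation is a description of the choice. The other hepatocyte groups were not used to choose them. There the rising transcripts held between 17.1% and 18.2% of the TPM in the vehicle libraries at 9 h, and between 16.003% and 17.6% in the low-dose libraries at 24 h. The falling ones held between 12.5% and 14.2% in vehicle at 9 h and between 11.3% and 15.2% in low dose at 24 h. For both sets, the summed levels in these 2 groups did not overlap those of vehicle at 24 h. Vehicle at 24 h was used to choose the sets, so its chance deviations move every other group the same way. The size of that shift was not measured, and nothing is read from the likeness of these levels to the high dose.

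The named transcripts show the same layout in single libraries. Among the DEGs with a mean log2 CPM of 3 or more and groups that did not overlap, ENSRNOT00000016152 (3191 bases) had the largest log2 rise. Among all DEGs the largest log2 rise was 12.004. Its level was 0.752, 1.04, 0.788 and 0.654 CPM in vehicle libraries MS-181, MS-182, MS-184 and MS-185, from 13 to 22 counts each. It was 322, 351, 345, 366 and 361 CPM in high-dose libraries MS-116 to MS-120. The vehicle libraries were all low and the high-dose libraries were close together and far above them. The log2 fold change was 8.76 ± 0.11 (SE, adjusted p = 3.32e-11, edgeR's quasi-likelihood test). The transcript stood at 477 ± 33.8 CPM (SD, n = 5) in vehicle at 9 h, 428 ± 32.2 in low dose at 9 h, 249 ± 32.4 in high dose at 9 h and 697 ± 62.7 in low dose at 24 h. It was thus expressed in the 25 other hepatocyte libraries, toxicant or not, and only the vehicle libraries at 24 h were low. Against low dose at 24 h the high dose was lower, with a log2 fold change of -0.99 ± 0.07 (SE, adjusted p = 2.46e-06, edgeR). Against vehicle at 9 h the high dose was also lower, by a log2 fold change of -0.45 ± 0.06 (SE, adjusted p = 7.54e-05, edgeR).

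ENSRNOT00000003921 (2069 bases) had the largest rise in mean TPM among the DEGs at these limits. The vehicle libraries held 9072, 8468, 9503 and 9082 CPM, and the high-dose libraries 28359, 28660, 29257, 25593 and 26809 CPM. The groups did not overlap. The SD was 1501 CPM at a mean of 27736 at the high dose and 426 CPM at a mean of 9031 in vehicle. The log2 fold change was 1.63 ± 0.06 (SE, adjusted p = 2.22e-08, edgeR), and the transcript went from rank 26 to rank 2 by mean TPM. At 9 h the level was 28379 ± 1551 CPM (SD, n = 5) in vehicle, 32056 ± 447 in low dose and 37495 ± 1656 in high dose. At 24 h it was 21764 ± 1456 CPM in low dose. Within each time, then, the level was higher at the high dose than at the low one, and at 24 h the high dose was above the low one by a log2 fold change of 0.35 ± 0.06 (SE, adjusted p = 0.000738, edgeR). Between the high dose at 24 h and vehicle at 9 h the log2 fold change was -0.03 ± 0.05 (SE, adjusted p = 0.675, edgeR). With MS-183 kept among the vehicle libraries, the rise of this transcript at 24 h was 1.93 on the log2 scale and missed the threshold (adjusted p = 0.0685, edgeR).

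The largest log2 fall at the same limits was that of ENSRNOT00000026473 (2638 bases), and among all DEGs the largest was 10.8 in size. It stood at 229, 191, 215 and 211 CPM in the vehicle libraries and at 0.0834, 0.249, 0.220, 0.128 and 0.300 CPM in high-dose libraries MS-116 to MS-120, the latter from 2 to 6 counts each. All vehicle libraries were high and all high-dose libraries were near 0. The log2 fold change was -10.1 ± 0.16 (SE, adjusted p = 1.67e-10, edgeR), and its exact size depends on these few counts. The level was 0.627 ± 0.173 CPM (SD, n = 5) in vehicle at 9 h, 0.251 ± 0.117 in low dose at 9 h, 0.185 ± 0.0849 in high dose at 9 h and 0.933 ± 0.347 in low dose at 24 h. The vehicle libraries at 24 h were thus the only hepatocyte libraries with more than 2 CPM. Between the doses at 24 h, the high dose was lower, with a log2 fold change of -2.25 ± 0.39 (SE, adjusted p = 0.000897, edgeR). The low-dose libraries at 24 h had only 13 to 39 counts each, so this size also depends on few counts.

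ENSRNOT00000040283, the transcript with the largest fall in mean TPM at the same limits, is only 69 bases long, so its TPM is large for its number of counts. It had 138.02, 153.52, 162.55 and 276.36 CPM in vehicle libraries MS-181, MS-182, MS-184 and MS-185, with MS-185 the highest. High-dose libraries MS-116 to MS-120 held 21.0, 22.1, 24.1, 26.0 and 26.0 CPM. The groups did not overlap, and the log2 fold change was -2.93 ± 0.20 (SE, adjusted p = 1.38e-06, edgeR). The 4 other hepatocyte groups had means between 17.9 and 22.4 CPM. Between high and low dose at 24 h the log2 fold change was 0.13 ± 0.12 (SE, adjusted p = 0.413, edgeR).

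**Figure D3:**
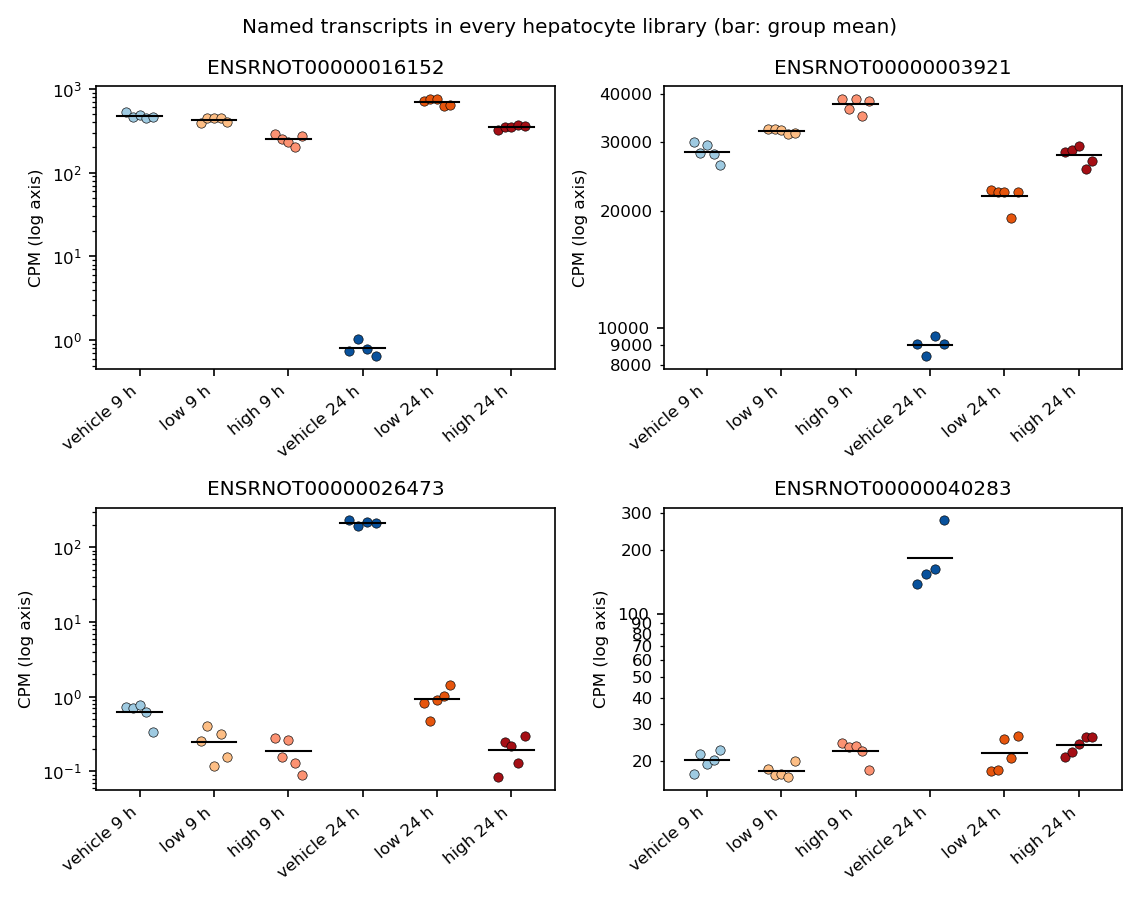
CPM on a log axis for the 4 named transcripts in each of 29 hepatocyte libraries, with groups along the horizontal axis, 1 point per library and a bar at the group mean. In all 4 panels the 4 vehicle libraries at 24 h lie outside the range of the other 25 libraries.

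How often a DEG had this layout was counted over the 29 libraries on one scale. The 4 vehicle libraries at 24 h lay on one side of all 25 other libraries for 2475 of the 4475 DEGs (55.3%), against 3628 of the 16749 transcripts tested (21.7%). With MS-183 kept in the fit, 1209 of the 1693 DEGs (71.4%) had this layout of the other 4 vehicle libraries. The 5 high-dose libraries at 24 h lay on one side of all 24 other libraries for 242 DEGs (5.41%), against 410 of the transcripts tested (2.45%). Both layouts held together for 63 DEGs, the vehicle layout alone for 2412 and neither for 1821. DEGs were chosen with these vehicle and high-dose libraries, so their higher shares partly follow from that choice. Of the 1279 rising DEGs with vehicle apart and the 1196 falling ones, 24 and 39 also had the high dose apart.

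The DEGs with only the high dose apart were 4.07% of those that rose and 3.91% of those that fell, against 2.04% of all transcripts tested. Their median log2 change was 1.32 among those that rose, with 34 of them changed by 4-fold or more and 13 by 16-fold or more. The 76 that fell had a median fall of 0.86 in size on the log2 scale, and 4 of them fell by 4-fold or more and 0 by 16-fold or more. For these transcripts the high-dose libraries were outside the range of vehicle at both times, of the low dose at both times and of the high dose at 9 h.

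The levels of the DEGs in the other groups are given relative to vehicle at 24 h. The median of the rising DEGs was 1.12 higher on the log2 scale in high dose at 24 h, 1.16 in low dose at 24 h, 0.997 in vehicle at 9 h, 1.01 in low dose at 9 h and 1.01 in high dose at 9 h. For the falling DEGs the same medians were -0.92, -0.97, -0.88, -0.89 and -0.91. All 5 differences subtract the same 4 vehicle libraries, on which the DEGs were chosen, so chance deviations of those libraries move all 5 in the direction of the DEGs, by an amount that was not measured. The 5 medians are therefore a description, and nothing is read from their likeness.

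**Figure D4:**
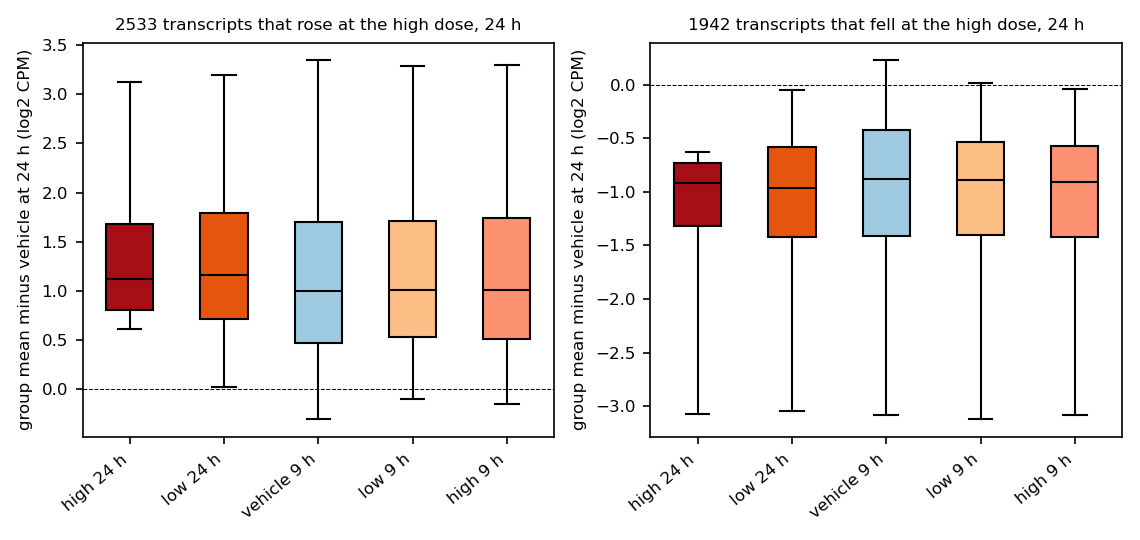
Group mean minus the mean of vehicle at 24 h (log2 CPM, vertical axis) for the 2533 transcripts that rose (left) and the 1942 that fell (right) at the high dose. Boxes show the quartiles and whiskers the 5th to 95th percentiles over transcripts, and the medians of the 5 groups lie between 0.997 and 1.16 on the left and between -0.97 and -0.88 on the right.

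The high dose was also compared with references that do not use vehicle at 24 h. Against the low dose at 24 h, 2520 of 16891 transcripts tested (14.9%) were DEGs, with 1111 higher and 1409 lower at the high dose. Of the 2526 transcripts that rose against vehicle and were tested here, 345 were higher at the high dose than at the low one (13.7%) and 348 were lower (13.8%). Over all transcripts tested, 6.58% were higher and 8.34% lower. Of the 1816 that fell against vehicle, 259 were lower at the high dose than at the low one (14.3%) and 7.49% were higher. Whether these shares differ from those over all transcripts was not tested.

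Against vehicle at 9 h, 3754 of 16743 transcripts tested (22.4%) were DEGs, with 1858 higher and 1896 lower at the high dose. This comparison differs in duration as well as in exposure. Of the 2516 transcripts that rose against vehicle at 24 h and were tested here, 609 were higher than in vehicle at 9 h (24.2%) and 375 were lower (14.9%). Over all transcripts tested, 11.1% were higher and 11.3% lower. Of the 1812 that fell, 401 were lower (22.1%) and 9.82% were higher. Here too the high-dose libraries had been used to choose the transcripts, so the shares in the same direction partly follow from the choice. Their difference from all transcripts was not tested.

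Against all 3 references (vehicle at 24 h, low dose at 24 h and vehicle at 9 h), 411 transcripts were DEGs in the same direction, of which 248 were higher at the high dose and the rest lower. They were 9.79% of the rising and 8.39% of the falling DEGs of the comparison at 24 h. The 3 comparisons share the 5 high-dose libraries, so the calls are not independent of each other. In the 248, the median log2 fold change was 1.31 against vehicle at 24 h, 0.98 against low dose and 1.37 against vehicle at 9 h, and 71.0% of them rose by 2-fold or more at 24 h. In those that were lower, the medians were -1.02, -0.96 and -1.14, and 88 fell by 2-fold or more at 24 h. The high-dose libraries lay apart from all 24 others for 77 of the rising (31.1%) and 58 of the falling ones (35.6%), against 5.41% of all DEGs and 2.45% of all transcripts tested. The 24 others include the 3 reference groups by which these transcripts were selected, so the shares largely follow from that selection.

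The effect of the high dose was then tested for a difference between 24 and 9 h, as (high minus vehicle at 24 h) minus (high minus vehicle at 9 h). This difference passed the thresholds for 5822 of 17898 transcripts tested (32.5%), and was positive for 3327 and negative for 2495. The 4 named transcripts were chosen for their large change at 24 h, which is part of the value tested, so their differences are given as a description. The difference on the log2 scale was 9.69 ± 0.16 (SE) for ENSRNOT00000016152 and -8.33 ± 0.51 (SE) for ENSRNOT00000026473. The test uses the vehicle libraries at 24 h, and duration and what sets those libraries apart cannot be told apart in it.

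The labelled cell type was checked with transcripts enriched in 1 cell type, since markers could not be looked up by gene. A transcript was enriched when its lowest TPM in the 5 vehicle libraries at 9 h of one cell type was at least 16-fold above the highest of the 10 of the other 2 cell types, plus 0.1, with a mean of at least 5 TPM. This gave 467 transcripts for hepatocytes and 207 for renal cells, and fewer for cardiomyocytes. Their gene identities are not known here. The renal list held at most 0.0308% of the TPM and the cardiomyocyte list at most 0.00825% in any of the 9 libraries, against at least 5.81% for the hepatocyte list.

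The summed TPM of the transcripts enriched in hepatocytes was lower in vehicle than at the high dose. The list held 5.81%, 6.89%, 6.93% and 6.05% of the TPM in vehicle libraries MS-181, MS-182, MS-184 and MS-185, and between 11.3% and 12.5% in the high-dose libraries. The groups did not overlap. In the low-dose libraries at 24 h the list held between 11.2% and 12.6%, and in the high-dose libraries at 9 h between 14.8% and 15.9%. Of its 458 members tested, 265 rose (57.9%) and 53 fell (11.6%), against 15.1% and 11.6% of all transcripts tested, and the median log2 fold change was 0.87 against 0.02 over all. Of its 318 DEGs, 266 had the 4 vehicle libraries apart from all 25 others (83.6%, against 55.3% of all DEGs) and 13 had the high dose apart (4.09%, against 5.41%). The 25 others include the 5 vehicle libraries at 9 h that chose the list for its high level there, so these shares partly follow from the choice. In these cultures, fewer hepatocytes and less RNA of the list per hepatocyte cannot be told apart.

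Against the low dose at 24 h the hepatocyte list gave other counts. Of its 461 members tested, 35 were higher at the high dose (7.59%) and 109 were lower (23.6%), with a median log2 fold change of -0.06. These may be read against 6.58% higher and 8.34% lower over all transcripts. Against vehicle at 9 h no reading is made, since those libraries chose the list.

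The lists of the other cell types were mostly below the filter. Of the renal list, 74 of 207 were tested and 30 rose (40.5%) and 9 fell (12.2%), with a median log2 fold change of 0.59, against 15.1%, 11.6% and 0.02 over all transcripts tested. The 30 that rose became 7 with MS-183 kept and 48 with no filter beyond 1 count, and the 9 that fell became 2 with MS-183 kept. Its summed share was 0.0222% to 0.0266% of the TPM in vehicle and 0.0241% to 0.0308% at the high dose, so the groups overlapped. With 4-fold in place of 16-fold enrichment they did not overlap, at 0.124% to 0.156% in vehicle and 0.182% to 0.227% at the high dose. Of the cardiomyocyte list, 40 (24.0%) were tested, 7 rose (17.5%) and 8 fell (20%), with a median log2 fold change of -0.39. Its summed share overlapped between the groups (0.00587% to 0.00825% in vehicle and 0.00489% to 0.00794% at the high dose). With 4-fold enrichment the share was higher at the high dose (0.0996% to 0.106%) than in vehicle (0.0691% to 0.0877%), without overlap. The 8 that fell became 14 without high-dose library MS-116, 14 with limma, 21 when the 6 hepatocyte groups were fitted together, 23 with no filter beyond 1 count and 2 with MS-183 kept. Members that passed the filter only through the group where they were high had to differ, so these counts describe the members tested and not the lists.

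**Figure D5:**
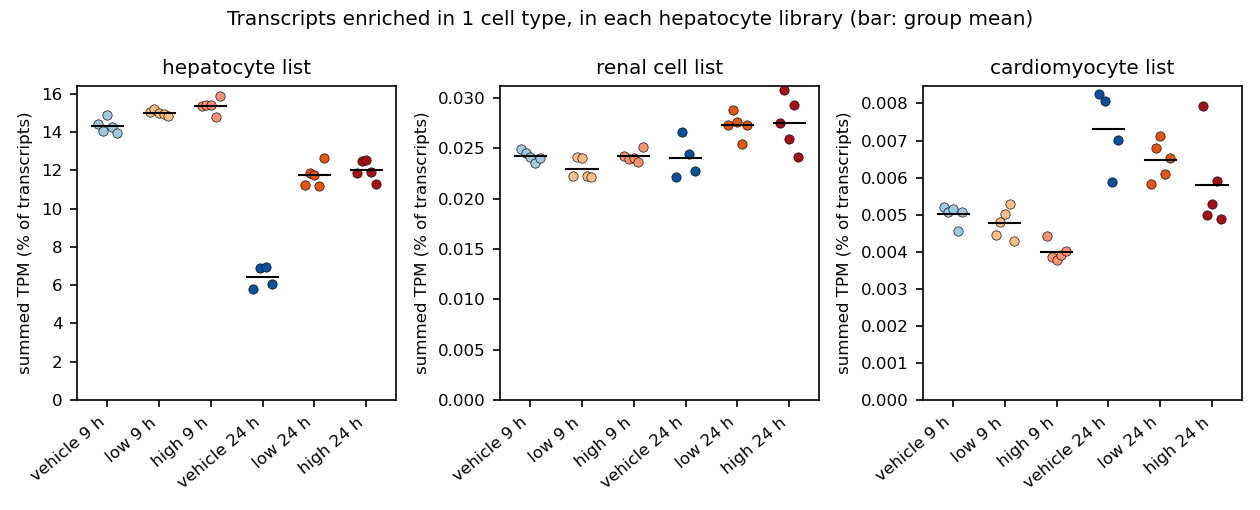
Summed TPM (percent of all transcripts, vertical axes from 0) of the transcripts enriched in hepatocytes, renal cells and cardiomyocytes, in each of 29 hepatocyte libraries, with 1 point per library and a bar at the group mean. The hepatocyte list lies between 5.81% and 6.93% in vehicle at 24 h and between 11.2% and 15.9% in the other libraries, while the other lists reach at most 0.0308% and 0.00825%.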

How the data were processed

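Poly-A-enriched RNA of cultured rat hepatocytes was sequenced. For each library the authors deposited TPM and estimated counts, which kallisto 0.42.4 (submitters' processing notes) gave per target on Rnor_6.0. Each table lists 40071 transcripts and 25095 genomic intervals, and only transcripts were tested. Reads shared by transcripts are divided among them, so values of near-identical isoforms are uncertain. Estimated counts were rounded and fitted with the quasi-likelihood functions of edgeR 4.0.16 (R 4.3.3), after its default expression filter and TMM scaling, with Benjamini-Hochberg adjustment. SE is the log2 fold change divided by the square root of F.

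The alternatives were DESeq2 1.42.0, limma 3.58.1, other scaling, filters and thresholds, all hepatocyte groups in one fit, and libraries left out. The members and lists were chosen with earlier results of these data known. The transcripts named are the DEGs with the largest log2 and TPM change in each direction, among those whose mean log2 CPM was 3 or more and whose groups did not overlap. Cell-type lists were added after the data were seen. On simulated data for the 24 h comparison, with 16368 transcripts tested, 17 of 49 changed by 1.5-fold, 33 of 48 by 2-fold, 49 of 50 by 4-fold and 46 of 50 by 8-fold were recovered, with 3 unchanged ones called. Gene names, lists and sequences could not be matched to the identifiers (0 matched). Of the other cell types, only the vehicle libraries at 9 h were used.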

Additional observations from a re-analysis of the deposited data

Results flagged for a closer look

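High-dose library MS-120 stood apart from the other 4 high-dose libraries in how concentrated its RNA was. Its 10 most abundant transcripts held 18.2% of the TPM, against 10.7% to 11.4% in the others, and its 100 most abundant held 43.3%, against 35.3% to 36.4%. These were 2 of 24 sets of 4 or 5 libraries checked for a library far from the rest, and chance gives about 1.2. The 2 measures overlap in content. Without MS-120 there were 4624 DEGs.

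The high-dose effect differed between 24 and 9 h in all 4 named transcripts by the interaction test. The transcripts were chosen for their large change at 24 h, which is part of the value tested, so these results largely follow from the choice. The differences (24 h minus 9 h, log2) were 9.69 for ENSRNOT00000016152, 1.22 for ENSRNOT00000003921, -8.33 for ENSRNOT00000026473 and -3.08 for ENSRNOT00000040283. In each, vehicle at 24 h lay outside the range of the other 25 hepatocyte libraries.

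Vehicle library MS-183, not used in the comparisons, had 91.7% of its estimated counts on genomic intervals. The other hepatocyte libraries had between 5.68% and 15.9% there.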

How the results depend on the processing

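The number of DEGs at 24 h (4475) lay within 1.5 times of itself under DESeq2 (4541, of which 4413 were shared), limma, 2 other scalings, 2 other filters, all hepatocyte groups in one fit, and a fit with intervals. It was 1693 with MS-183 kept among the vehicle libraries, of which 1666 were shared, 8132 with no fold threshold and 2380 with a fold of at least 2. Leaving out each of the 9 libraries gave between 4192 and 4624. The difference between times gave between 5593 and 6021 DEGs with 1 of these 9 left out. In the comparisons with low dose and with vehicle at 9 h, only the 5 high-dose libraries were left out in turn. These gave between 2360 and 2583 DEGs against low dose, and between 3691 and 3773 against vehicle at 9 h. With upper-quartile scaling, 2838 transcripts rose and 1684 fell at 24 h, against 2533 and 1942. The mean absolute log2 fold change (0.62) was 0.44 on log2(TPM + 1), and between 0.60 and 0.67 with a library left out. The rise of ENSRNOT00000003921 missed the threshold with MS-183 kept, and the directions of the 4 named transcripts held under the alternatives run for them (DESeq2, upper-quartile scaling, no filter, the 6 hepatocyte groups fitted together, MS-183 kept and each library left out). With MS-183 kept, 1209 of the 1693 DEGs (71.4%) had vehicle apart (2475 of 4475, or 55.3%, without it), 7.15% of the 1693 had the high dose apart (5.41% of the 4475, and more in number), and 26 members of the hepatocyte list fell (53 without it). With 4-fold in place of 16-fold enrichment, added after the data were seen, 47.1% of the hepatocyte list rose and 14.04% fell, 38.1% and 12.8% of the renal list, and 25.7% and 16.02% of the cardiomyocyte list. The renal list had 48 members that rose with no filter and 7 that rose and 2 that fell with MS-183 kept, and the cardiomyocyte list 3 that rose with MS-183 kept, against 7. The causes were not tested. No paired analysis was possible because the groups share no replicate number. The simulation recovered 33 of 48 changes of 2-fold, but it changed far fewer transcripts than were called here. Its adjusted p was therefore harder to pass, and the rate does not carry over to these data. How many changes of this size were missed here was not measured.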
